A study of Aspergillus nidulans with 9 samples.

Results

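The aspyridone genes studied here are 6 genes of the *apd* cluster, AN8408, AN8409, AN8411, AN8412 (*apdA*), AN8414 (*apdR*) and AN8415, read by identifier from a table of 10988 genes. They were chosen by identifier, with no threshold on their counts. RNA was sequenced from vegetatively grown cells (Vege) of *Aspergillus nidulans* kept for 24 h at 37 °C in the dark in liquid glucose minimal medium. WT, Δ*veA* and Δ*laeA* strains gave 3 libraries each, or 9 in all. The list of strains describes the Δ*veA* strain as having *argB* in place of *veA*. It describes the Δ*laeA* strain as carrying the *methG1* allele, with *methG* in place of *laeA* and with *veA* kept. Whether the 3 libraries of a genotype came from separate cultures is not given in the sources used here, so SDs and p-values may measure technical spread only.

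Aspyridones are pyridone alkaloids of *A. nidulans*. A polyketide synthase fused to a nonribosomal peptide synthetase, encoded by *apdA*, builds a polyketide chain and joins it to tyrosine, and reductases and oxidases then finish the molecule. The genes lie side by side and are known as a silent cluster, which was opened in the laboratory by forced expression of its own activator gene, *apdR*. LaeA, a nuclear protein with a methyltransferase fold, and VeA, of the *velvet* family, form a complex with VelB that is needed for many such clusters. The RefSeq table used for names gave a symbol to 0 of the 6 genes, so AN8408, AN8409, AN8411 and AN8415 are given by identifier only.

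The labels were checked first on the deleted genes. *veA* (AN1052) had 108 to 116 CPM (CPM is the count scaled to the same normalized total in every library) in WT and 773 to 815 CPM in the Δ*veA*-labelled libraries, which goes against the label. *laeA* (AN0807) had 34.2 to 37.9 CPM in WT and 4.96 to 6.61 CPM in the Δ*laeA*-labelled libraries. Directions below are therefore those of the libraries labelled Δ*veA* or Δ*laeA*. All 6 conidiation markers (*brlA*, *abaA*, *wetA*, *rodA*, *yA* and *pksP*) had reads in every group of these cells named vegetative. Their summed level was 51.4 to 53.2 CPM in WT, 14.1 to 16.8 CPM in the Δ*veA*-labelled libraries and 19.6 to 22.3 CPM in the Δ*laeA*-labelled ones, and its part in the results below was not tested. By the thresholds for a DEG given below, 4 of the 6 were lower in the Δ*veA*-labelled libraries (*brlA*, *wetA*, *rodA* and *pksP*) and 3 in the Δ*laeA*-labelled ones (*brlA*, *abaA* and *rodA*), beside 19.9% and 14.5% of all tested genes. The log2 fold changes of *yA* were -0.12 and -0.07, and that of *wetA* in the Δ*laeA*-labelled libraries was -0.13 (adjusted p = 0.532, edgeR). In bulk RNA, fewer cells of a kind and less RNA per cell cannot be told apart.

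All 4 tested members had values above 0 in the Δ*laeA*-labelled libraries against WT, where the median of all tested genes was -0.0041. The 95% intervals of AN8411 and *apdR* included 0. Of the 4 members, 2 passed the adjusted p, as did 73.4% of all tested genes. In the Δ*veA*-labelled ones 2 were above 0 and 2 below, and 1 passed, where 80.2% of all tested genes did. For the synthase gene *apdA* the log2 fold change was 1.72 in the Δ*laeA*-labelled libraries, and in the Δ*veA*-labelled ones it was 0.08 (-0.18 with library totals alone, where the median of all tested genes was -0.26). AN8415, at the far end of the cluster, fell by 1.15 on the log2 scale in the Δ*veA*-labelled libraries and rose by 0.68 in the Δ*laeA*-labelled ones. The activator gene *apdR* and AN8411 had few reads in all 9 libraries and did not pass the test with all libraries in it. AN8408 and AN8409 were at or close to 0.

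**Figure D1:**
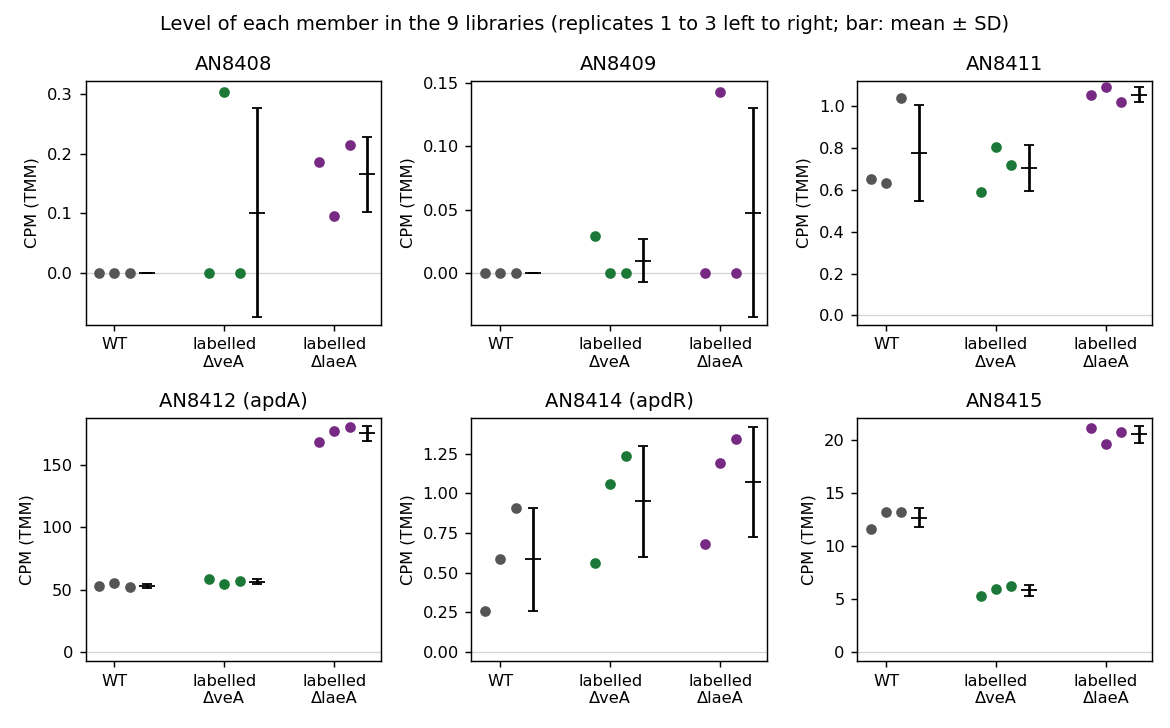
CPM of each of the 6 genes in each of the 9 libraries, grouped by label, with the mean and SD of 3 libraries to the right of the points and a separate vertical scale for each gene. *apdA* sits between 52.0 and 58.4 CPM in WT and the Δ*veA*-labelled libraries and between 168 and 180 CPM in the Δ*laeA*-labelled ones. AN8415 is apart in all 3 groups, and AN8408 and AN8409 stay at or near 0.

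The members differed widely in their reads. *apdA* had 808 to 3721 reads per library and AN8415 had 118 to 539. In WT alone *apdA* had 808 to 2248 reads, so this gene of a cluster known as silent was not without reads. AN8411 had 10 to 26 reads and *apdR* had 4 to 25. AN8408 had 0 to 6 reads and AN8409 had 0 to 3, in libraries of 13396869 to 35755046 counted reads. These are counts per gene and not per length, so they show how well each gene was measured and do not rank transcript levels. A filter on low counts (filterByExpr of edgeR) kept 4 of the 6 members among 9481 tested genes and put AN8408 and AN8409 aside.

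*apdA* (AN8412), the synthase gene, had 52.7, 54.9 and 52.0 CPM in WT replicates 1 to 3. The Δ*veA*-labelled libraries had 58.4, 54.2 and 56.6 CPM, and the Δ*laeA*-labelled ones had 168, 177 and 180 CPM. All 3 Δ*laeA*-labelled libraries were thus above every other library, while WT and the Δ*veA*-labelled libraries overlapped. The mean rose from 53.2 ± 1.52 CPM in WT to 175 ± 6.06 CPM in the Δ*laeA*-labelled libraries (SD, n = 3), a 3.29-fold change. Its log2 fold change was 1.72 with a standard error of 0.055 (edgeR's quasi-likelihood test, adjusted p = 1.00e-23). Against WT, the Δ*veA*-labelled libraries had a mean of 56.4 ± 2.11 CPM (SD, n = 3) and a log2 fold change of 0.08, with a 95% interval of -0.03 to 0.20 (adjusted p = 0.165, same edgeR test). With library totals alone in place of the normalization factors, this value was -0.18 (adjusted p = 0.00567, edgeR). It then passed the adjusted p but stayed short of 2-fold. The median over the 9481 tested genes moved in the same direction, from 0.0012 to -0.26. This alternative left out only the normalization factors, which scale every gene of a library alike. They were 1.14 to 1.15 in WT and 0.95 to 0.96 in the Δ*veA*-labelled libraries. Which scale is nearer to the truth was not tested.

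AN8415 had 11.6, 13.2 and 13.2 CPM in WT replicates 1 to 3. It had 5.24, 5.96 and 6.27 CPM in the Δ*veA*-labelled libraries, and 21.1, 19.7 and 20.8 CPM in the Δ*laeA*-labelled ones. The 3 groups did not overlap, with the WT libraries in the middle. Its mean fell from 12.7 ± 0.92 to 5.82 ± 0.53 CPM in the Δ*veA*-labelled libraries (SD, n = 3), or 2.21-fold. The log2 fold change was -1.15 with a standard error of 0.11 (adjusted p = 7.93e-11, edgeR's quasi-likelihood test). In the Δ*laeA*-labelled libraries the mean was 20.5 ± 0.78 CPM (SD, n = 3), which is 1.61-fold that of WT. That log2 fold change of 0.68 had a standard error of 0.10 and an adjusted p of 4.09e-07 (edgeR), and it stayed short of 2-fold. With library totals alone it was 0.36 (adjusted p = 0.00198, edgeR), in libraries where the median of all tested genes was then -0.33.

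*apdR* (AN8414), the gene of the activator, had 0.26, 0.59 and 0.91 CPM in WT replicates 1 to 3, from 4, 24 and 21 reads. The Δ*veA*-labelled libraries had 0.56, 1.06 and 1.23 CPM, and the Δ*laeA*-labelled ones had 0.68, 1.19 and 1.35 CPM. The groups overlapped, and the library numbered 1 was the lowest in each of them. In the Δ*laeA*-labelled libraries the log2 fold change was 0.82, with a 95% interval of -0.05 to 1.69 (adjusted p = 0.0825, edgeR). This call depended on single libraries, since the value was 1.17 without WT replicate 3 (adjusted p = 0.0370, edgeR) and 1.04 without the first Δ*laeA*-labelled library (adjusted p = 0.0446, edgeR). Against WT the Δ*veA*-labelled libraries had 0.56, with an interval of -0.31 to 1.42 (adjusted p = 0.226, edgeR). All 3 intervals of *apdR* include 0, and those against WT also include a 2-fold rise, so that at this depth no change and a 2-fold rise could not be told apart. The limit of 3 reads that a count of 0 allows corresponded to 0.073 to 0.20 CPM, depending on the library, for counting error only.

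AN8411 had 0.65, 0.63 and 1.04 CPM in WT replicates 1 to 3, with 10, 26 and 24 reads. The Δ*veA*-labelled libraries had 0.59, 0.81 and 0.72 CPM, and the Δ*laeA*-labelled ones had 1.05, 1.09 and 1.02 CPM. WT replicate 3 lay within the range of the Δ*laeA*-labelled libraries, so that these groups overlapped. The log2 fold change was 0.46 in the Δ*laeA*-labelled libraries (95% interval -0.30 to 1.22, adjusted p = 0.267, edgeR). In the Δ*veA*-labelled ones it was -0.15 (-0.93 to 0.63, adjusted p = 0.723, edgeR), and it was 0.11 without WT replicate 3.

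AN8408 had 0 reads in all 3 WT libraries. It had 0, 6 and 0 reads in the Δ*veA*-labelled libraries and 3, 2 and 4 reads in the Δ*laeA*-labelled ones. All of the reads in the Δ*veA*-labelled libraries thus came from replicate 2, whereas each Δ*laeA*-labelled library held some. Without the filter on low counts, AN8408 passed the test in the Δ*laeA*-labelled libraries (adjusted p = 0.0143 with edgeR and 0.0287 with DESeq2), on 9 reads against 0. A count of 0 allows up to 3 reads per library, and most of these counts lie at or under that limit, so no fold is given.

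AN8409 had 0 reads in the WT libraries, 1, 0 and 0 in the Δ*veA*-labelled ones and 0, 3 and 0 in the Δ*laeA*-labelled ones. It was at or under the limit of 3 reads in every library. No fold or test is given for it.

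The counts of members called were then read against those of all genes. In the Δ*veA*-labelled libraries, 1 of the 4 tested members was a DEG (past 2-fold, with adjusted p below 0.05), AN8415, and it fell. Of all 9481 tested genes, 33.6% were DEGs in this comparison and 19.9% were DEGs that fell. In the Δ*laeA*-labelled libraries, 1 of the 4 was a DEG, *apdA*, and it rose, where 24.4% of all tested genes were DEGs and 9.90% were DEGs that rose. A share of 1 in 4 is close to the shares of DEGs in either direction among all genes, so these counts set the members apart from other genes in neither comparison. Adjusted p alone was passed by 1 of 4 members in the Δ*veA*-labelled libraries and by 2 of 4 in the Δ*laeA*-labelled ones, against 80.2% and 73.4% of all tested genes. The median log2 fold change of the 4 tested members was -0.03 in the Δ*veA*-labelled libraries and 0.75 in the Δ*laeA*-labelled ones, beside 0.0012 and -0.0041 for all tested genes. These medians carry no test and rest in part on AN8411 and *apdR*, which had few reads. Both comparisons share the WT libraries.

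The libraries of both mutants were then set directly against each other, which tests whether they differ. *apdA* was lower in the Δ*veA*-labelled libraries than in the Δ*laeA*-labelled ones, with a difference of -1.63 on the log2 scale (SE 0.055, adjusted p = 4.58e-23, edgeR's quasi-likelihood test). AN8415 was lower too, with -1.83 (standard error 0.11, adjusted p = 8.97e-16, edgeR), which is 3.56-fold. Over the 16 alternatives tried, these values stayed between -1.69 and -1.57 for *apdA* and between -1.88 and -1.77 for AN8415. AN8411 had a difference of -0.61 (95% interval -1.39 to 0.16, adjusted p = 0.151, edgeR), and its libraries did not overlap between the mutants. For *apdR* the difference was -0.26 (-1.09 to 0.56, adjusted p = 0.574, edgeR), and its libraries did overlap. In this comparison 2 of the 4 tested members were DEGs, both lower, against 18.4% of all tested genes in either direction and 11.6% of them lower. The same 2 passed the adjusted p alone, which 70.1% of all tested genes did.

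**Figure D2:**
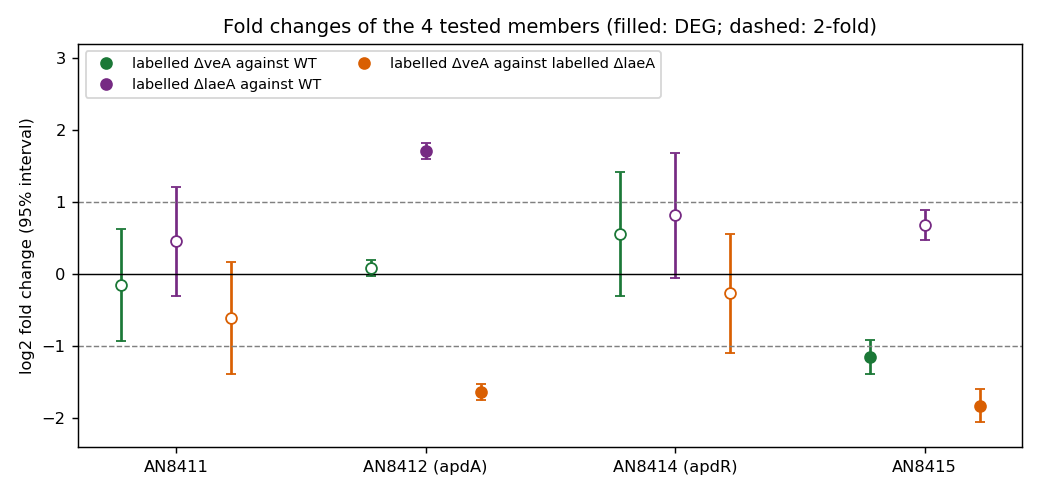
Log2 fold changes of the 4 tested members with 95% intervals from edgeR's quasi-likelihood fit, for each mutant against WT and for the mutants against each other. Filled points mark DEGs and dashed lines mark 2-fold, so that the filled points are *apdA* at 1.72 and -1.63 and AN8415 at -1.15 and -1.83. The intervals of AN8411 and *apdR* all include 0.

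Within the cluster lie 2 further rows of the table, AN8410 and AN8413, which are not among the 6 members. AN8410 had 0, 3 and 0 reads in WT, 1, 0 and 1 in the Δ*veA*-labelled libraries, and 2, 0 and 4 in the Δ*laeA*-labelled ones. AN8413, which lies between *apdA* and *apdR*, had 3, 4 and 4 reads in WT, 0, 7 and 6 in the Δ*veA*-labelled libraries, and 7, 14 and 11 in the Δ*laeA*-labelled ones. The latter libraries had 0.43 to 0.67 CPM and WT had 0.098 to 0.20 CPM, without overlap. Neither gene passed the filter. Without it, AN8413 passed the test in the Δ*laeA*-labelled libraries at an adjusted p of 0.0143 with edgeR and 0.0369 with DESeq2. The reads of AN8413 were far fewer than those of *apdA* itself in all 9 libraries. The methods name no strand option for the read counting and state that defaults were used, and the default of featureCounts does not use strand, so that sense and antisense reads cannot be told apart.

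The order of genes in RefSeq was used to read the 10 genes on either side. Of those before AN8408, 7 were tested, and 3 were DEGs that fell in the Δ*veA*-labelled libraries and 2 in the Δ*laeA*-labelled ones, with 0 that rose in either. Among all tested genes, 19.9% and 14.5% were DEGs that fell in these comparisons, and 13.6% and 9.90% were DEGs that rose. Next to AN8408 on that side lies AN8407, named after its values were seen, with 0.06 in the Δ*veA*-labelled libraries and 0.01 in the Δ*laeA*-labelled ones (adjusted p = 0.402 and 0.873, edgeR). Of the 10 genes after AN8415, 6 were tested. In the Δ*veA*-labelled libraries, 2 of these were DEGs that fell, beside 19.9% of all tested genes. In the Δ*laeA*-labelled ones, 1 was a DEG that rose and 1 a DEG that fell, beside 9.90% and 14.5% of all tested genes.

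The gene that rose was AN8416, which directly follows AN8415. It had 11.9, 12.6 and 11.5 CPM in WT, 6.57, 6.77 and 6.42 CPM in the Δ*veA*-labelled libraries, and 26.8, 25.7 and 27.9 CPM in the Δ*laeA*-labelled ones. As with AN8415, the 3 groups did not overlap and WT was in the middle. Its log2 fold change was 1.15 in the Δ*laeA*-labelled libraries (adjusted p = 7.96e-13, edgeR) and -0.87 in the Δ*veA*-labelled ones (adjusted p = 6.48e-09, edgeR), the latter short of 2-fold. The gene after it, AN8417, also named after its values were seen, had 0.56 and 0.11 in the same order and was no DEG. Of the other DEGs nearest to the cluster, AN8403 had -1.61 in the Δ*veA*-labelled libraries and -1.29 in the Δ*laeA*-labelled ones, and AN8400 had -1.67 and -2.55. AN8421 had -2.91 in the Δ*veA*-labelled libraries and -0.05 in the Δ*laeA*-labelled ones. AN8422, named after its values were seen, had 209 to 538 reads in WT and 0 to 5 in each mutant library. It is counted above among the DEGs that fell in both comparisons. It passed the filter through WT alone, so that a fall was the only call open to it.

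**Figure D3:**
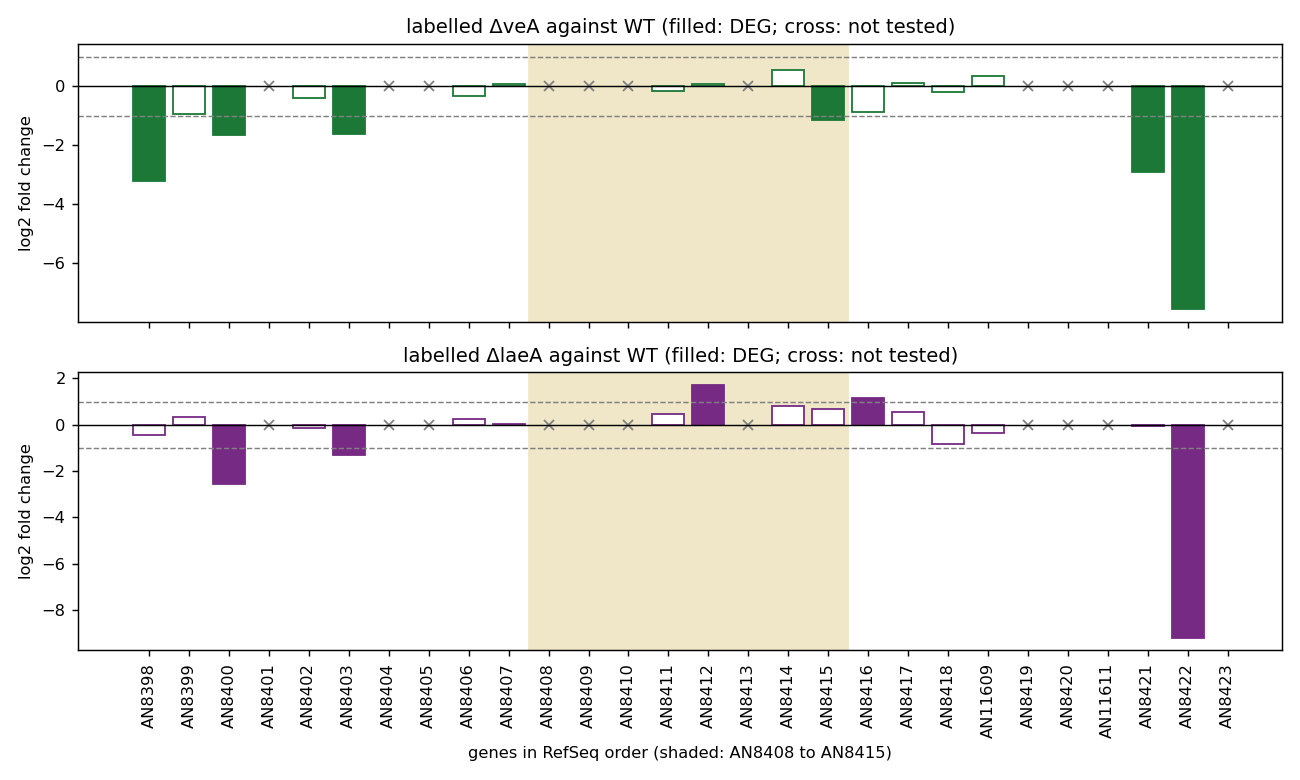
Log2 fold change against WT of the genes from AN8398 to AN8423 in RefSeq order, for the Δ*veA*-labelled libraries (top) and the Δ*laeA*-labelled ones (bottom), with the range AN8408 to AN8415 shaded. Filled bars are DEGs, open bars are tested genes that are not, and crosses are genes not tested. The adjacent AN8415 and AN8416 had -1.15 and -0.87 at the top and 0.68 and 1.15 at the bottom. AN8422 reaches furthest down in both. It had 0 to 5 reads in each mutant library, so the length of its bars is not a measured fold.

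To see which genes had a pattern most like that of the members, the log2 CPM of each tested gene was centred on its own mean and compared over the 9 libraries by the root mean square difference. The 3 genes nearest to *apdA* among 9480 were AN9026, AN11886 and AN1717, with differences of 0.085, 0.087 and 0.097 on the log2 scale. AN11886 had 256 ± 14.4 CPM in WT, 251 ± 1.04 CPM in the Δ*veA*-labelled libraries and 790 ± 34.0 CPM in the Δ*laeA*-labelled ones (SD, n = 3). Members were left out when these 3 were chosen, and AN8410 and AN8413 were not tested, so that none could lie in the cluster. The other tested members stood further from *apdA*, at rank 569 for AN8415, 852 for AN8411 and 3131 for *apdR*. AN8416, which is not a member, stood nearer to *apdA* than these, at rank 178 with 0.39. AN8411 and *apdR* had few reads, so their ranks cannot tell a different pattern from counting error.

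The 3 genes nearest to *apdR* were AN9256, AN0251 and AN8962, at 0.33, 0.34 and 0.40, and these larger differences go with low counts, 4 to 78 reads per library over the 3 genes. The same order was taken for AN8415 after its values were seen. Its nearest genes were AN2019, AN0280 and AN3308, at 0.10 each, and the adjacent AN8416 had rank 26 with 0.21. AN3308 had 537 ± 3.38 CPM in WT, 274 ± 5.81 CPM in the Δ*veA*-labelled libraries and 933 ± 12.8 CPM in the Δ*laeA*-labelled ones (SD, n = 3).

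**Figure D4:**
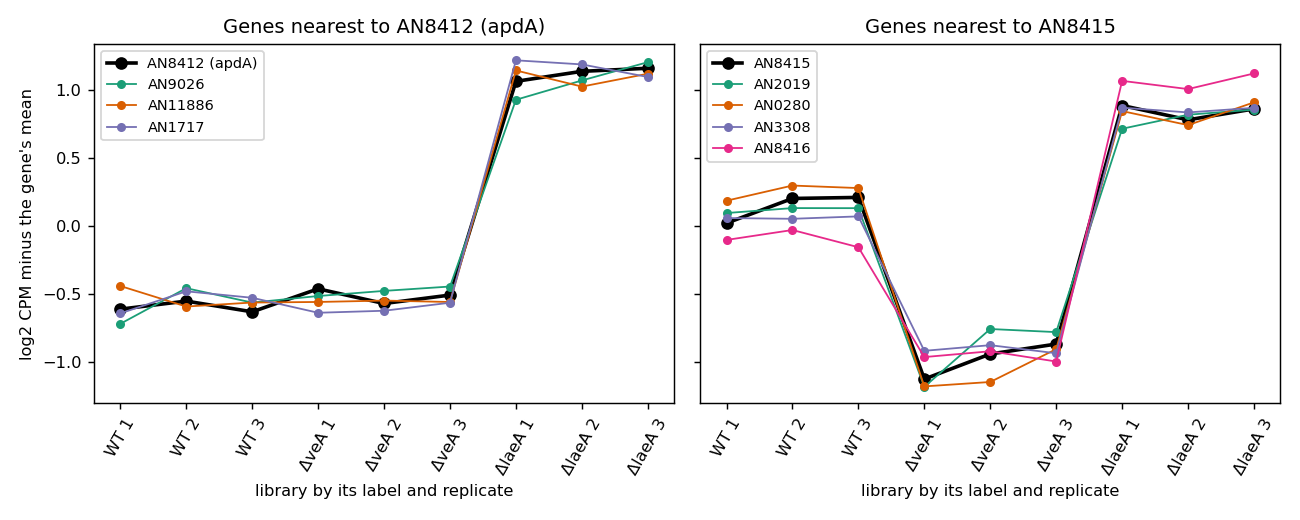
Log2 CPM minus each gene's mean in the 9 libraries, for *apdA* with its 3 nearest genes (left) and for AN8415 with its 3 nearest genes and the adjacent AN8416 (right). The left curves are level over WT and the Δ*veA*-labelled libraries and step up in the Δ*laeA*-labelled ones, while the right curves fall in the former mutant and rise in the latter.

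Finally, *apdA* was read beside a list of 17 synthase genes of other clusters, among them *tpcC*, *ivoA* and *pksP*, which is also among the conidiation markers, of which 12 were tested. In the Δ*laeA*-labelled libraries, 6 of the 12 were DEGs that fell and 2 were DEGs that rose (AN1034 and AN7884, with log2 fold changes of 2.29 and 1.44), beside 14.5% and 9.90% of all tested genes. The median of the 12 was -0.80, where *apdA* had 1.72. In the Δ*veA*-labelled libraries, 7 of the 12 were DEGs that fell and 1 was a DEG that rose, beside 19.9% and 13.6% of all tested genes. The median of the 12 was -1.39 there, where *apdA* had 0.08. With library totals alone *apdA* had -0.18, but the list was not read under that scaling. AN8383 and AN7071, counted as falls in both comparisons, had 38 to 95 and 19 to 45 reads in WT. In the mutant libraries they had 0 to 3 and 1 to 7 reads. They passed the filter through WT alone, so a fall was the only call open to them, and both medians include them. The list was chosen with earlier results of these data known and carries no test.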

How the data were processed

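Total RNA of Vege was made into strand-specific libraries. Per the labels and the methods, the authors mapped reads with HISAT2 2.1 and counted them per gene with featureCounts 1.5.0. The deposited values are read counts without normalization, and each of the 9 per-library files matched its column in the joint table. Groups are the genotypes in the labels. Counts were normalized by TMM and tested across all genes with edgeR 4.0.16 in R 4.3.3 (filterByExpr, quasi-likelihood test with robust dispersions, 1 model of 9 libraries, Benjamini-Hochberg adjustment over 9481 genes). The adjusted p-values in the report come from this test unless another tool is named. DEGs met the thresholds of the methods, more than 2-fold with adjusted p below 0.05. Standard errors were derived from the F statistic. Log2 CPM for pattern likeness used a prior count of 0.5. Totals ranged from 13396869 to 35755046 counts, with a median of 20346515, and replicates differed by more than sampling noise (chi-square per degree of freedom 2.85 to 13.3). Alternatives were DESeq2 1.42.0, RLE factors, library totals alone, other filters, fewer groups, a replicate block, no fold minimum and each library left out.

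The members and lists were chosen with earlier results of these data known. By the rule, the text names all members, the rows between them, the deleted genes, at most 4 DEGs among 10 neighbours on each side, 3 genes of most like pattern each for *apdA* and *apdR*, the conidiation markers and a list of synthases. Taking the 4 DEGs nearest to the cluster was decided after their values were seen. So was naming AN8407, AN8417, AN8422, AN8383, AN7071 and the genes most like AN8415, and giving the ranks of AN8416. RefSeq assembly ASM1142v1, used for names and gene order, is not the record the methods cite, so no coordinate, length or sequence is given. Genes of precursor supply carried no symbol there and are not reported.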

Additional observations from a re-analysis of the deposited data

How the results depend on the processing

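Over the alternatives, *apdA* kept its DEG call in the Δ*laeA*-labelled libraries and AN8415 its call in the Δ*veA*-labelled ones, and both kept theirs in the direct comparison. Of the values of single members, 184 kept their direction and their side of the thresholds and 3 changed direction. *apdA* did so in the Δ*veA*-labelled libraries with library totals alone (-0.18, with the median of all tested genes at -0.26). AN8411 did so in the same comparison without WT replicate 3 (0.11, in a range of -0.33 to 0.11 with 1 library left out). *apdR* did so between the mutants without the first Δ*veA*-labelled library (0.047, in a range of -0.50 to 0.047). The cause of the changes in AN8411 and *apdR* was not tested, and neither was which scale for *apdA* is nearer to the truth. The number of members called in the Δ*laeA*-labelled libraries was 1, and it became 2 with DESeq2 and with no filter, where AN8408 was added on its 9 reads against 0. It was also 2 without the fold-change minimum, where AN8415 was added, and ranged from 1 to 2 with 1 library left out, where *apdR* was added. In the Δ*veA*-labelled libraries the count was 1 throughout, and between the mutants it was 2 throughout. The filter of at least 10 counts in every library left 3 members, without *apdR*.

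The replicate number was added as a block in 1 alternative. The block left the counts of members called at 1, 1 and 2, and *apdR* in the Δ*laeA*-labelled libraries had 0.89 (adjusted p = 0.0547, edgeR). Deviations of libraries with the same number correlated at -0.020 to 0.074, so the numbers were not taken as pairs. Over all genes, library totals alone put the share of DEGs that were higher at 26.0% in the Δ*veA*-labelled libraries and 22.9% in the Δ*laeA*-labelled ones, against 40.6% in both with TMM. Without the fold minimum, 7601, 6960 and 6645 genes were called in place of 3181, 2312 and 1740.

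Depth limits AN8408, AN8409, AN8411 and *apdR*, with at most 26 reads per library.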
